A study of Drosophila melanogaster with 6 samples.

Results

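Pigment and tanning genes were examined in RNA-seq libraries of regenerating wing discs of *Drosophila melanogaster*. The group holds 10 genes of the 16455 listed in each library: *ple*, *Ddc*, *Pu*, *b*, *e*, *t*, *y*, *w*, *v* and *cn*. They were taken by their FlyBase symbols. The gene *t* entered the group because its values differ between the libraries described here, so its difference is given as a description and without a test. The other members were listed for their function in colouring the cuticle or the eye.

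The study asked how a disc damaged by cell death responds when the long noncoding RNA *CR40469* is deleted. All 6 libraries came from wing imaginal discs of larvae in the third instar, the epithelial sacs that form the adult wing, after 16 h of ectopic expression of the proapoptotic gene *rpr*. The 3 mutant-labelled libraries carried *CR40469-KO* together with *salE/Pv-LHG:tub-Gal80TS* and *lexO-rpr*, and the 3 control-labelled libraries carried the same transgenes without *CR40469-KO*. Discs of both labels therefore undergo cell death: in every library an enhancer of *spalt* drove the temperature-controlled LHG activator, and with it *rpr*, in the central region of the wing disc only. The study's methods describe the deletion as a replacement by a fluorescent reporter cassette and the RNA of each library as a pool of discs, and no source gives whether the pools of a label came from separate crosses, so p-values measure only the spread between these libraries. The labels state no allele of *y*, *w* or *v*.

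Insect cuticle is coloured and hardened by derivatives of tyrosine. Tyrosine hydroxylase and dopa decarboxylase make dopamine, which is either oxidised to black and brown melanins or joined to beta-alanine as N-beta-alanyl dopamine (NBAD), the precursor of yellow sclerotin. The proteins Ebony and Tan run this conjugation forward and backward, and in the visual system they do the same with histamine. Eye colour has other sources, the brown ommochromes made of tryptophan and the red pteridines made of GTP, which are stored in pigment granules related to lysosomes. Most of these enzymes are known for their work in the pupa and the adult, after the stage sampled here.

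The deposited values are TPM, the measure of transcript abundance per length that RSEM scales to a sum of 1000000 in each library, written to 2 decimals. Depth cannot be read back from TPM. The paper reports numbers of mapped reads in its supplement, but these were not used here, so no value has a counting interval. Between 7695 and 7779 genes reached 1 TPM in mutant-labelled libraries, and between 7683 and 7690 in control-labelled libraries. The deleted gene went against its label. *CR40469* (X, 122493 to 122706 of dm6) was listed at 535.93, 389.21 and 293.78 TPM in mutant-labelled libraries, against 99.61, 46.44 and 82.52 TPM in control-labelled libraries. Every direction below therefore holds for the labels as deposited, and the genotype behind a label was not established. *CR34335*, which the paper describes as highly similar in sequence, went the other way. It lay between 1902 and 1938 TPM in mutant-labelled libraries and between 2443 and 3522 TPM in control-labelled libraries. How reads were divided between *CR40469* and *CR34335* cannot be followed in TPM. The driver's product was high under both labels, with *rpr* at 144.06, 189.81 and 164.11 TPM in mutant-labelled libraries and 132.26, 122.67 and 143.52 TPM in control-labelled libraries. Defining genes of the wing disc (*nub*, *vg*, *sd*, *ap*, *salm* and *wg*) all passed the filter on low values, and their summed level lay between 434 and 594 TPM in mutant-labelled libraries and between 344 and 561 TPM in control-labelled libraries.

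The test took each gene that reached 1 TPM in any library and compared the labels with limma on log2(TPM + 1), a scale that understates the change of low genes. A gene was called at an adjusted p under 0.05 (Benjamini-Hochberg over all 8051 tested genes) and a fold change over 1.7. By this rule 18 genes, or 0.224% of those tested, were called, 12 of them (0.149%) higher and 6 (0.0745%) lower in mutant-labelled libraries. At that share a count of 0 called in a short list below is not read as a result about the list. The count moved by over 1.5 times with single libraries left out, to 35 without mutant replicate 1, 11 without mutant replicate 3, 6 without control replicate 1 and 9 without control replicate 3. Over all tested genes the median of the log2 fold changes was 0.13, so values near it are not separated from a shift of the whole library.

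The members were genes of low expression in these discs. The levels in TPM, which are per length, put *w* highest with a mean of 10.2 TPM over the 6 libraries, followed by *Ddc* (3.56 TPM), *t* (3.54 TPM), *Pu* (3.46 TPM) and *b* (2.52 TPM), whose ranges overlap. Below them came *ple* (0.733 TPM), *e* (0.208 TPM), *y* (0.05 TPM) and *v* (0.00333 TPM), and *cn* was listed at 0 everywhere. Only *Ddc*, *Pu* and *w* reached 1 TPM in all 6 libraries. The filter was passed by 6 members, *ple* through 1 library labelled control alone and *t* through control-labelled libraries alone, while *e*, *y*, *v* and *cn* stayed under it and were not tested. Of the 5 tested members other than *t*, 0 were called, beside 0.224% of all tested genes. At an unadjusted p under 0.05 there were 2 of these 5, *Pu* and *w*, beside 4.82% of all tested genes.

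**Figure D1:**
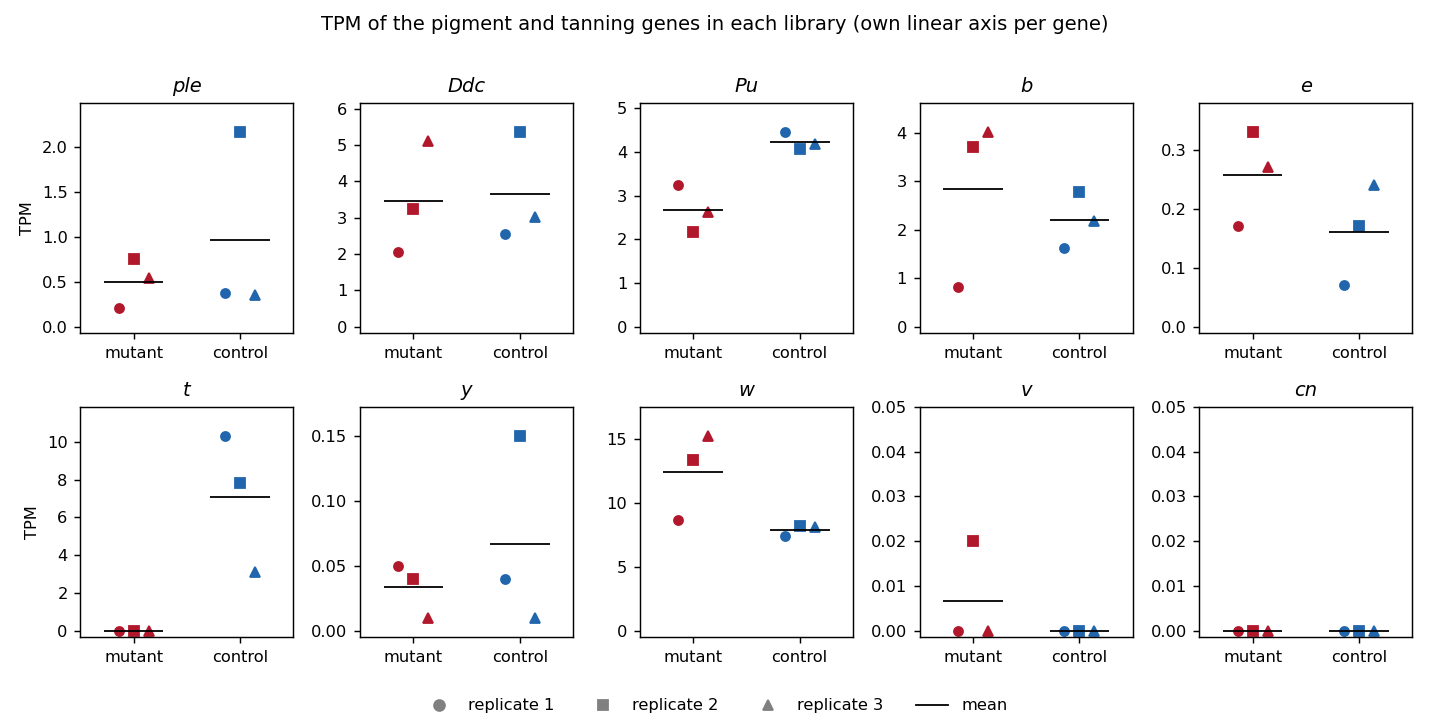
Each panel plots the TPM of 1 member in the 3 mutant-labelled libraries (red, left) and the 3 labelled control (blue, right) on its own linear axis, with the replicate number as the symbol and the mean as a line. The mutant-labelled libraries sit at 0 for *t*, below all control libraries for *Pu* and above them for *w*, and the labels overlap in the other 7 panels.

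The gene *t* (tan, FBgn0086367) codes for the hydrolase that splits NBAD back into dopamine and beta-alanine, and carcinine into histamine in photoreceptors. It was listed at 0 TPM in all 3 mutant-labelled libraries, against 10.32, 7.83 and 3.11 TPM in control-labelled libraries. The control mean was 7.09 ± 3.66 TPM (SD, n = 3), and the highest control library was 3.32 times the lowest. The groups do not overlap, and no fold is given against a group listed at 0. With these control values *t* was above *Ddc*, *Pu* and *b* in control replicates 1 and 2, and below *Pu* in control replicate 3. In bulk libraries fewer cells that use a gene and less RNA per cell cannot be told apart.

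Cells known to use *t* in the adult include photoreceptors. Of 7 genes of eye disc and photoreceptor, *gl*, *sev* and *ninaE* were at or under 0.08 TPM and *ey* at or under 0.38 TPM in every library. The labels did not overlap for *sev*, which was lower in all mutant-labelled libraries. The other 3 were expressed under both labels. *so* was between 12.11 and 14.51 TPM in mutant-labelled libraries and between 9.63 and 11.96 TPM in control-labelled libraries, without overlap. In this direction 7.9% of all tested genes did not overlap. The labels overlapped for *eya*, between 11.81 and 20.60 TPM, and for *chp*, a gene of the photoreceptor surface, between 1.69 and 3.90 TPM. The sum of the 7 was between 31.1 and 37.4 TPM in mutant-labelled libraries and between 24.0 and 31.4 TPM in control-labelled libraries, and 0 of the 3 tested were called. Of 8 fat body genes 6 were tested and 0 were called. *Lsp2*, *Fbp1* and *Fbp2* were lower in all mutant-labelled libraries, but they passed the filter through control-labelled libraries alone, so that neither their count nor a median over the list is read here. *Lsp1alpha*, under the filter, was also lower in all of them. *Lsp1beta*, *Tsf1* and *apolpp* overlapped between labels. So did *Lsp1gamma*, at 2.26, 1.60 and 1.65 TPM in mutant-labelled libraries and 1.73, 1.63 and 1.41 TPM in control-labelled libraries. The summed level of the 8 was 13.3, 8.42 and 8.42 TPM in mutant-labelled libraries and 19.2, 19.2 and 11.8 TPM in control-labelled libraries. The part of fat body RNA in the values of *t* was not tested.

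On chromosome X *t* runs from 9217655 to 9223257 on the minus strand of dm6, with 2 annotated transcripts, 9.09 Mb from *CR40469*. No other annotated gene overlaps its exons. Its nearest neighbour upstream carried the same pattern at a lower level. *CG15370* (FBgn0030107, 9225437 to 9226688 on the plus strand), which is named by its annotation number only, begins 2180 bases beyond the 5′ end of *t* and is transcribed away from it. It was listed at 0 TPM in all 3 mutant-labelled libraries, against 2.33, 1.11 and 0.32 TPM in control-labelled libraries. The control libraries thus stood in the same order as for *t*, and *CG15370* amounted to 22.6%, 14.2% and 10.3% of the TPM of *t* in control replicates 1, 2 and 3. *CG15370* passed the filter through control-labelled libraries alone, was not called, and is given no fold because its other group is listed at 0.

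The 3 genes that follow within the first few kb downstream of *t* were silent or nearly so. *CG15369*, whose end lies 189 bases from *t* on the opposite strand, was listed at 0.11 TPM in control replicate 1 and at 0 in the other 5 libraries. The odorant-binding protein gene *Obp8a*, 1956 bases away, was listed at 0.13 TPM in the same library and at 0 in the other 5. *CG15368*, between them, was at 0 in all 6. These traces appeared in the library in which *t* was highest.

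Beyond *CG15370* genes expressed under both labels lie among genes that were nearly silent. *Gr8a*, a gustatory receptor gene 3880 bases upstream, stayed at or under 0.04 TPM in all 6 libraries. *Ir8a*, 9469 bases upstream and between *CG12121* and *mxc*, stayed at or under 0.01 TPM. *CG12121*, 5539 bases upstream, was listed at 58.94, 36.58 and 39.34 TPM in mutant-labelled libraries and 33.99, 45.24 and 39.14 TPM in control-labelled libraries, with a log2 fold change of 0.16 (SE 0.21). The gene of the histone locus body, *mxc*, was listed at 21.86, 9.07 and 10.10 TPM in mutant-labelled libraries and 8.25, 12.80 and 9.71 TPM in control-labelled libraries. For both genes mutant replicate 1 was the highest library and the labels overlapped, and without that library their log2 fold changes were -0.05 for *CG12121* and -0.07 for *mxc*.

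Within 50 kb of *t* the files list 24 other genes. Of these, 13 were tested and 11 stayed under 1 TPM, of which 3 were at 0 in every library. Of the 13 tested 0 were called, beside 0.224% of all tested genes. The labels did not overlap for 5 of the 13 (10.5% of all tested genes did not overlap), and *CG15370*, which passed the filter only through control-labelled libraries, is among them. *Dsor1*, the MAP kinase kinase of the Ras pathway, was listed at 41.27, 36.37 and 35.24 TPM in mutant-labelled libraries against 27.35, 29.19 and 33.28 TPM in control-labelled libraries (log2 fold change 0.32, SE 0.14, adjusted p = 0.818 by limma). *Larp7*, which codes for an RNA-binding protein of the small nuclear RNP that holds back transcription elongation, was listed at 26.77, 22.08 and 21.29 TPM in mutant-labelled libraries against 15.09, 19.72 and 20.82 TPM in control-labelled libraries (log2 fold change 0.32, SE 0.17, adjusted p = 0.818 by limma). The remaining pair moved less, with log2 fold changes of 0.11 for *CG12118*, which turns to -0.02 under median ratio scaling, and -0.13 for *CG12056*. The other 8 tested genes, *mei-P26*, *CG12106*, *CG12121*, *mxc*, *amx*, *CG17754*, *ric8a* and *Cfp1*, overlapped between labels and had log2 fold changes between -0.07 and 0.41.

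**Figure D2:**
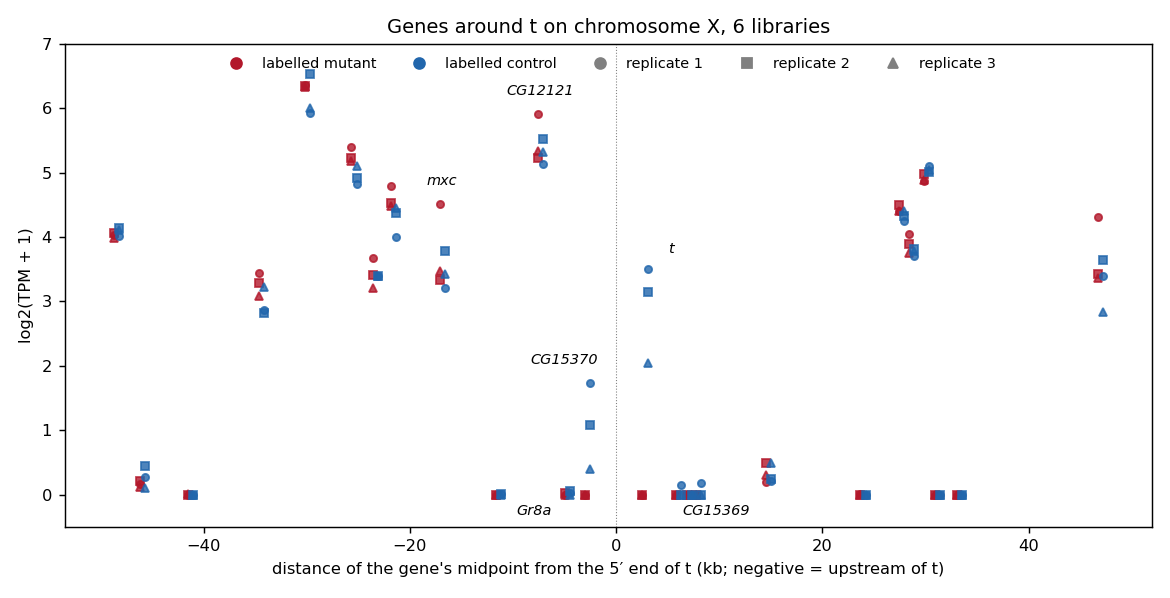
The level of *t* and of the genes within 50 kb, as log2(TPM + 1), is plotted against the distance of each gene's midpoint from the 5′ end of *t* in kb (dotted line), with 1 symbol per library, red for mutant-labelled libraries and blue for control-labelled libraries. Only at *t* and *CG15370* do 3 red symbols lie at 0 while all 3 blue symbols lie clearly above, between 0.32 and 10.32 TPM. The other tested genes have red and blue symbols well above 0. Among these the labels do not overlap for *Dsor1*, *Larp7*, *CG12118* and *CG12056*.

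A listing at 0 under one label with at least 1 TPM in every library of the other was rare. It held for 3 of the 8051 tested genes (0.0373%), all on X: *t* itself, *CG32631* in the same direction and *Crg-1* in the opposite one. *CG32631* (FBgn0052631, X, 13556472 to 13557866) lies 4.34 Mb from *t* and was listed at 0 TPM in the 3 mutant-labelled libraries, against 1.71, 1.22 and 1.58 TPM in control-labelled libraries. *Crg-1* (FBgn0021738, X, 3793223 to 3797339), which codes for a forkhead protein, lies 5.42 Mb from *t* and was listed at 4.52, 2.89 and 3.09 TPM in mutant-labelled libraries, against 0 TPM in control-labelled libraries. These 3 genes were picked by their values, which are therefore not tested here. *CG15370* is not counted because control replicate 3 held 0.32 TPM.

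None of the tested enzyme genes that supply dopamine or beta-alanine (*ple*, *Ddc*, *Pu* and *b*) was called. Tyrosine hydroxylase, the rate-limiting enzyme of dopamine synthesis and the product of *ple* (FBgn0005626, 3L, 6713356 to 6719525, minus strand), had 0.21, 0.75 and 0.54 TPM in mutant-labelled libraries and 0.38, 2.17 and 0.35 TPM in control-labelled libraries. Control replicate 2 alone was above 1 TPM, and the other control libraries lay inside the range of mutant-labelled libraries. The log2 fold change of *ple* was -0.29 (SE 0.33, 95% confidence interval -1.05 to 0.47, adjusted p = 0.818 by limma), and -0.14 without control replicate 2.

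Dopa decarboxylase, from *Ddc* (FBgn0000422, 2L, 19116483 to 19120306, minus strand), is the enzyme that turns dopa into dopamine, and its gene is known to respond to ecdysone. Its TPM were 2.05, 3.23 and 5.11 in mutant-labelled libraries and 2.56, 5.36 and 3.03 in control-labelled libraries. The ranges coincide almost fully, the log2 fold change was -0.07 (SE 0.30, interval -0.76 to 0.62, adjusted p = 0.926), and its sign turned without mutant replicate 1 (0.18) or without control replicate 2 (0.18). An exon of *Ddc* overlaps *CG10561* on the opposite strand, and since the use of strand in counting is not given, reads of the pair cannot be told apart.

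*Pu* (FBgn0003162, 2R, 21175315 to 21182608, plus strand) codes for GTP cyclohydrolase I, which makes the pterin cofactor of tyrosine hydroxylase and is also the entry to the red pteridines. It was listed at 3.24, 2.17 and 2.63 TPM in mutant-labelled libraries and at 4.46, 4.06 and 4.19 TPM in control-labelled libraries. Every library labelled mutant was below every control library, with means of 2.68 ± 0.537 TPM and 4.24 ± 0.204 TPM (SD, n = 3 each), beside 2.56% of all tested genes that did not overlap in this direction. The limma log2 fold change was -0.52 (SE 0.15, interval -0.87 to -0.17), or -0.62 under median ratio scaling. With an unadjusted limma p of 0.00919 and an adjusted p of 0.529, *Pu* did not pass the test over all genes.

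Beta-alanine for the conjugate comes from aspartate through the decarboxylase of *b* (black, FBgn0000153, 2L, 13821248 to 13823979, plus strand). *b* was listed at 0.81, 3.70 and 4.01 TPM in mutant-labelled libraries and at 1.62, 2.78 and 2.18 TPM in control-labelled libraries. Here mutant-labelled libraries held both the lowest value and the highest, and the control libraries lay between them. The log2 fold change was 0.15 (SE 0.37, interval -0.71 to 1.003, adjusted p = 0.887), and it turned to -0.07 and -0.11 when mutant replicate 2 or mutant replicate 3 was left out. Ebony, the NBAD synthase that works against Tan, is made from *e* (FBgn0000527, 3R, 21229839 to 21237177, minus strand), which held 0.17, 0.33 and 0.27 TPM in mutant-labelled libraries and 0.07, 0.17 and 0.24 TPM in control-labelled libraries. These levels are under the filter and overlap. In control-labelled libraries *t* was thus listed at 7.09 TPM on average and *e* at 0.160 TPM, while in mutant-labelled libraries *e* was listed at 0.257 TPM and *t* at 0.

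The secreted protein of *y* (yellow, FBgn0004034, X, 356509 to 361245, plus strand) is needed for black melanin. With 0.05, 0.04 and 0.01 TPM in mutant-labelled libraries and 0.04, 0.15 and 0.01 TPM in control-labelled libraries, it was barely detected under either label. *y* lies 0.234 Mb from *CR40469*, the nearest of the members.

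Among the members that act on ommochromes, *w* alone passed the filter. *w* (white, FBgn0003996, X, 2790599 to 2796466, minus strand), an ABC transporter subunit that brings pigment precursors into granules, was listed at 8.65, 13.35 and 15.24 TPM in mutant-labelled libraries and at 7.41, 8.20 and 8.08 TPM in control-labelled libraries. All mutant-labelled libraries were above all control libraries, with means of 12.4 ± 3.39 TPM and 7.90 ± 0.426 TPM (SD, n = 3 each), beside 7.9% of all tested genes that did not overlap in this direction. The log2 fold change was 0.56 (SE 0.20, interval 0.09 to 1.03), and 0.44 under median ratio scaling. Mutant replicate 1 was close to the control libraries and mutant replicates 2 and 3 were well above. The adjusted p of limma was 0.818 with all libraries and 0.0894 without mutant replicate 1, where the log2 fold change was 0.78 (0.0894 to 0.9999 over all alternatives), so *w* passed the test in no fit.

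The partners of White were almost absent. *st* (scarlet), the subunit that pairs with it for ommochrome precursors, was between 0.14 and 0.24 TPM in mutant-labelled libraries and between 0.12 and 0.18 TPM in control-labelled libraries. *bw* (brown), its partner for pteridines, stayed at or under 0.05 TPM in all 6 libraries. The members that code for enzymes of the ommochrome route were at or close to 0. *v* (vermilion, FBgn0003965, X, 10923972 to 10925631, plus strand), which opens the ring of tryptophan, was listed at 0.02 TPM in mutant replicate 2 and at 0 in the other 5 libraries. *cn* (cinnabar, FBgn0000337, 2R, 7782797 to 7785067, minus strand), the kynurenine hydroxylase, was at 0 in all 6. *cd* (cardinal), a later gene of the route, was between 0.02 and 0.10 TPM in mutant-labelled libraries and between 0.05 and 0.42 TPM in control-labelled libraries. A value of 0 written to 2 decimals does not show that no RNA was present.

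The members on X, *y*, *w*, *t* and *v*, did not move together. They lie 0.234, 2.67, 9.09 and 10.8 Mb from *CR40469*. *w* was higher in all mutant-labelled libraries, *t* was listed at 0 there, and *y* and *v* were at or under 0.15 TPM throughout. The remaining members are spread over 2L (2 genes), 2R (2), 3L (1) and 3R (1).

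Genes that work beside the members were taken from 8 lists by role, with 73 symbols in all. Of these 71 were matched in the files, 53 were tested and 18 stayed under the filter. Beside *t*, which was chosen for its difference, 52 were tested, of which 0 were called, against 0.224% of all tested genes. At an unadjusted p under 0.05 were 0 of the 47 that are not members, beside the members *Pu* and *w* given above. The labels did not overlap for 6 of the 52 (11.5%), beside 10.5% of all tested genes, and 0 were past a fold change of 1.7, beside 1.48% of all tested genes. The median log2 fold change of the 52 was 0.05, and -0.07 under median ratio scaling.

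*Catsup* and *Dhpr* were the most expressed genes of dopamine supply. *Catsup*, a negative regulator of tyrosine hydroxylase, was listed at 141.03, 147.37 and 139.52 TPM in mutant-labelled libraries and at 112.98, 135.87 and 132.46 TPM in control-labelled libraries. The labels did not overlap, but the difference was small, with a log2 fold change of 0.17 (SE 0.14, adjusted p = 0.818), near the 0.13 of all tested genes. *Dhpr*, which recycles the pterin cofactor, was listed at 129.62, 132.39 and 126.81 TPM in mutant-labelled libraries and at 128.87, 121.00 and 131.25 TPM in control-labelled libraries. *amd*, a relative of *Ddc* needed for cuticle, was listed at 17.35, 7.77 and 7.56 TPM in mutant-labelled libraries and at 8.94, 6.80 and 8.51 TPM in control-labelled libraries, so that mutant replicate 1 alone stood out. All 7 genes of the list were tested, 3 had log2 fold changes above 0 and 4 below, and the median was -0.07 (-0.16 under median ratio scaling).

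In the conjugation list *CG5618*, a relative of *b*, was the most expressed gene, at 26.45, 16.99 and 12.88 TPM in mutant-labelled libraries and 17.90, 18.73 and 14.09 TPM in control-labelled libraries. Its log2 fold change of 0.09 (SE 0.25) turned to -0.03 under median ratio scaling, so no direction is given.

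The yellow family, whose other members code for secreted proteins like Yellow, was expressed in part. Of its 14 genes 6, *y* among them, stayed under the filter, at or under 0.15 TPM. Of 14 genes 8 were tested, 0 were called, and 3 had log2 fold changes above 0 and 5 below, with a median of -0.15 (-0.24 under median ratio scaling). *yellow-b* was listed at 20.77, 11.39 and 15.17 TPM in mutant-labelled libraries and at 22.06, 22.13 and 19.69 TPM in control-labelled libraries (log2 fold change -0.45, SE 0.21, adjusted p = 0.818). The neighbours *yellow-e2* and *yellow-e3* on 3R had unlike values. *yellow-e2* was listed at 45.44, 23.89 and 26.73 TPM in mutant-labelled libraries and at 23.34, 27.22 and 24.67 TPM in control-labelled libraries, and *yellow-e3* at 22.87, 12.66 and 13.86 TPM in mutant-labelled libraries and at 21.66, 17.10 and 20.00 TPM in control-labelled libraries. In both genes mutant replicate 1 was the highest of the 6 libraries.

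Oxidation of the catechols is the last step of tanning. *stw*, which codes for the laccase of the cuticle, was listed at 15.73, 18.27 and 16.87 TPM in mutant-labelled libraries and at 12.05, 19.83 and 14.15 TPM in control-labelled libraries, and the labels overlapped (log2 fold change 0.16, SE 0.19). The prophenoloxidase genes *PPO1* and *PPO2*, which act in the crystal cells of the blood, differed far more between libraries of one label than between labels. *PPO2* was listed at 5.69, 0.10 and 1.58 TPM in mutant-labelled libraries and at 4.70, 0.23 and 1.82 TPM in control-labelled libraries, and *PPO1* at 4.69, 0.06 and 1.41 TPM in mutant-labelled libraries and at 4.33, 0.16 and 1.55 TPM in control-labelled libraries. Under both labels replicate 1 was high, replicate 3 intermediate and replicate 2 low.

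The highest library was 56.9 times the lowest for *PPO2* and 78.2 times for *PPO1*. Among the 1454 genes with a mean of 1 to 10 TPM and no library at 0, the median of this ratio was 1.98, and 4 genes, *PPO1* and *PPO2* included, reached that of *PPO2*. Their log2 fold changes of -0.02 (*PPO2*, interval -1.65 to 1.61) and -0.04 (*PPO1*, interval -1.60 to 1.52) change sign with single libraries and carry no direction. Of 7 haemocyte genes, *Hml* and *Sr-CI* took the same order of replicate numbers under both labels, with *Sr-CI* at 1.05, 0.19 and 0.46 TPM in mutant-labelled libraries and 0.82, 0.11 and 0.54 TPM in control-labelled libraries. *NimC1*, *eater*, *He* and *crq* did not take it. Their highest control value was in replicate 3, and *crq* had its highest mutant value in replicate 2. The sum of the 7, most of it *crq*, was between 31.2 and 35.4 TPM in mutant-labelled libraries and between 23.2 and 34.2 TPM in control-labelled libraries. *lz*, the regulator of crystal cells, stayed at or under 0.03 TPM. The part of blood cell RNA in the values of *PPO1* and *PPO2* was not tested. *PPO3*, the form of the lamellocytes, was between 0.75 and 0.86 TPM in mutant-labelled libraries and between 0.61 and 0.76 TPM in control-labelled libraries.

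**Figure D3:**
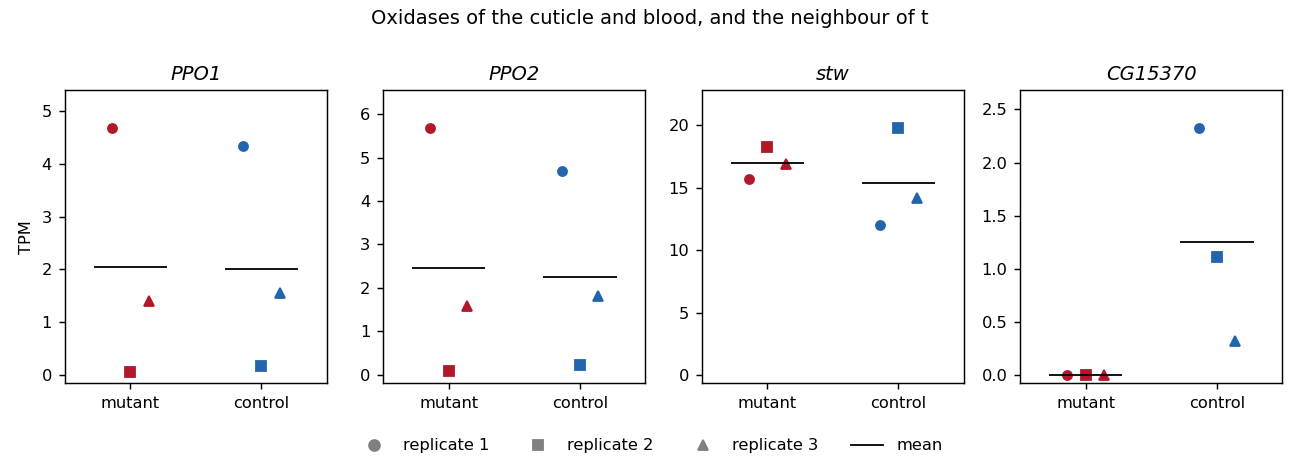
TPM of the blood oxidases *PPO1* and *PPO2*, of the cuticle laccase gene *stw* and of *CG15370*, the neighbour of *t*, are plotted per library on linear axes, with mutant-labelled libraries in red on the left, control-labelled libraries in blue on the right, the replicate number as the symbol and the mean as a line. *PPO1* and *PPO2* take the same order of replicate numbers under both labels, from 0.06 to 5.69 TPM, while *CG15370* is at 0 in all 3 mutant-labelled libraries.

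The hormone that sets off tanning was not expressed as a pair. *Burs* was at 0 in all 6 libraries, and its partner *Pburs* was listed at 0.19, 0.68 and 1.44 TPM in mutant-labelled libraries and at 0.15, 0.42 and 0.36 TPM in control-labelled libraries. The receptor gene *rk* was between 1.48 and 2.07 TPM in mutant-labelled libraries and between 1.55 and 2.08 TPM in control-labelled libraries. Of the 7 genes of oxidation and tanning hormone 5 were tested and 0 were called, with a median log2 fold change of -0.02 (-0.12 under median ratio scaling).

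By summed TPM the pteridine list was above the ommochrome list, but not all of it was expressed. Its genes *se* (sepia), *ry* and *bw* stayed under the filter, at or under 0.87 TPM. Of 14 genes 11 were tested, 0 were called, 6 had log2 fold changes above 0 and 5 below, and the median was 0.03 (-0.10 under median ratio scaling). The level was led by *cl* (clot), an enzyme of drosopterin synthesis, at 285.96, 355.48 and 357.97 TPM in mutant-labelled libraries and 422.34, 315.05 and 382.69 TPM in control-labelled libraries. *Pcd*, the carbinolamine dehydratase that regenerates the cofactor, was listed at 119.03, 134.77 and 138.74 TPM in mutant-labelled libraries and at 174.87, 122.75 and 164.20 TPM in control-labelled libraries. For both genes the control libraries spanned most of the range, with control replicate 1 the highest and the labels overlapping. *ry*, the xanthine dehydrogenase gene, stayed at or under 0.17 TPM. *cin* and *mal*, which respectively make and complete the molybdenum cofactor of that enzyme, averaged 71.2 and 19.1 TPM in mutant-labelled libraries and 79.0 and 17.2 TPM in control-labelled libraries. Along this route *Pu*, the entry enzyme, was the gene with the lowest adjusted p, 0.529, and the genes after it, *pr* and *Sptr*, had log2 fold changes of 0.06 and 0.07, which turn to -0.07 and -0.06 under median ratio scaling.

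The ommochrome list kept *w* and *kar* alone above the filter. *kar* (karmoisin), which codes for a transporter-like protein, was listed at 7.42, 4.6 and 4.47 TPM in mutant-labelled libraries and at 5.63, 4.80 and 5.14 TPM in control-labelled libraries, with a log2 fold change of 0.04 (SE 0.19) that turns to -0.07 under median ratio scaling.

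Genes that build pigment granules serve lysosomes in all cells, and all 13 passed the filter. Of these 10 had log2 fold changes above 0 and 3 below, with a median of 0.15 beside 0.13 for all tested genes (0.02 under median ratio scaling), and 0 were called. The most expressed were *lt*, of the complex that tethers vesicles to lysosomes, and *or* and *cm*, of the AP-3 adaptor. Their means were 68.5, 66.1 and 52.5 TPM in mutant-labelled libraries and 70.6, 65.7 and 51.3 TPM in control-labelled libraries.

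Most regulators of the pigment genes were expressed in these discs. The homeodomain partners *exd* and *hth* averaged 178 ± 22.5 and 158 ± 12.6 TPM in mutant-labelled libraries and 184 ± 31.7 and 156 ± 52.2 TPM in control-labelled libraries (SD, n = 3 each). *Dll*, known to act on pigment genes in wings of *Drosophila biarmipes*, was listed at 34.05, 33.30 and 32.29 TPM in mutant-labelled libraries and at 24.48, 49.41 and 27.83 TPM in control-labelled libraries. *bab2*, a gene for a repressor of abdominal pigmentation, averaged 19.9 ± 1.43 TPM in mutant-labelled libraries and 19.9 ± 7.23 TPM in control-labelled libraries, while *bab1* stayed at or under 0.56 TPM and the abdominal Hox gene *Abd-B* at or under 0.02 TPM. For *hth*, *Dll* and *bab2* control replicate 2 was the highest of all 6 libraries. Of 9 regulators 7 were tested, 0 were called, and the median log2 fold change was 0.05 (-0.07 under median ratio scaling).

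**Figure D4:**
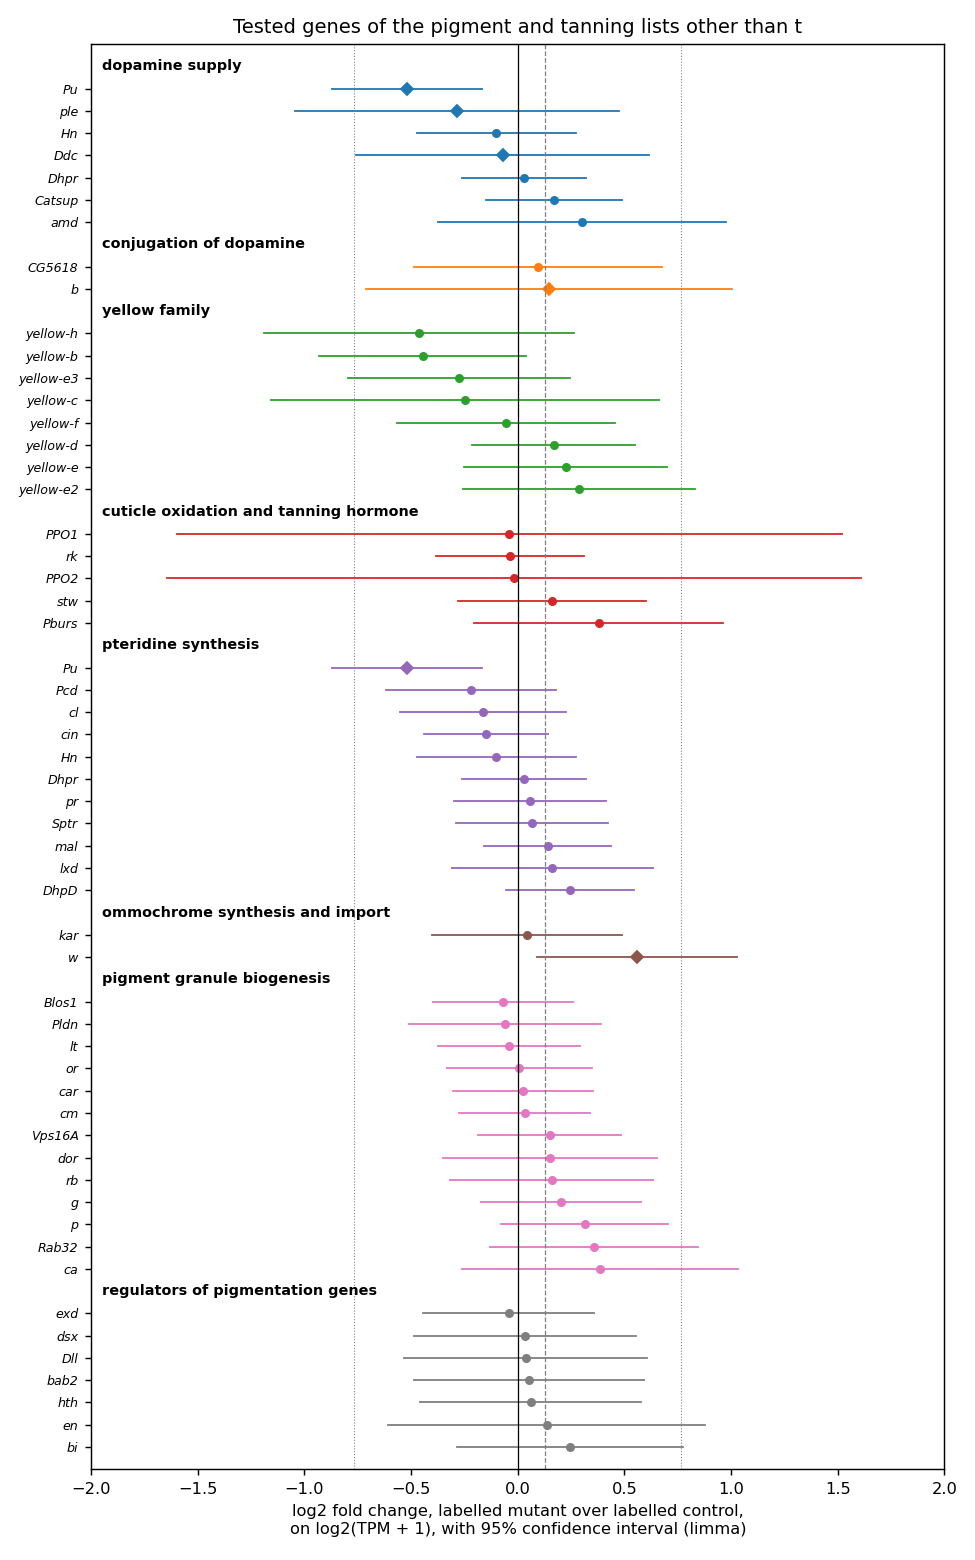
Points give the limma log2 fold change, mutant-labelled libraries over control-labelled libraries on log2(TPM + 1), of every tested gene of the 8 lists except *t*, with bars for the 95% confidence interval, diamonds for members, a dashed line at the median of all tested genes (0.13) and dotted lines at a fold change of 1.7. The intervals of *Pu* (-0.87 to -0.17) and *w* (0.09 to 1.03) alone leave out 0, neither is called over all genes, and a gene of more than 1 list is drawn in each.

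*ple*, *Ddc* and *b* varied within a label. The highest library was 6.2 times the lowest among control-labelled libraries for *ple*, and among mutant-labelled libraries 4.95 times for *b* and 2.49 times for *Ddc*. Over all 6 libraries the highest library was 10.3 times the lowest for *ple*, 4.95 times for *b* and 2.61 times for *Ddc*, beside a median of 1.58 over tested genes with no library at 0. The libraries that set these ranges recur. *ple*, *Ddc* and *b* each had their highest control value in replicate 2 and their lowest mutant value in replicate 1. The summed level of 9 ecdysone response genes, most of it *ImpE2*, was 2909, 4024 and 3993 TPM in mutant-labelled libraries and 2029, 4410 and 3207 TPM in control-labelled libraries. In this sum control replicate 2 was the highest control library and mutant replicate 1 the lowest mutant-labelled one. Single genes of the list differed. Mutant replicate 1 was the highest mutant-labelled library for *Eip74EF*, *Eip75B* and *br*, and the lowest for the other genes. Control replicate 2 was the highest control library except for *Eip71CD*, where it was the lowest, and *ImpE3*. The part of developmental timing in the values of *ple*, *Ddc* and *b* was not tested.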

How the data were processed

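RNA-seq of 3 libraries labelled *CR40469* mutant and 3 labelled control was analysed. According to the study's methods and the submitters' processing notes, the authors aligned paired reads to dm6 with STAR 2.4.0j in the grape-nf pipeline, kept alignments to a limited number of loci, and quantified FlyBase genes with RSEM 1.2.21. The deposited values are TPM, which the authors obtained for 16455 genes and gave as 1 file per library. Reads that RSEM divided between similar or overlapping genes cannot be followed in TPM, and whether strand was used is not given in the sources used here, so levels of *Catsup*, *Dhpr*, *CG5618*, *yellow-b*, *cl*, *Pcd*, *pr*, *Sptr*, *or*, *cin*, *bw*, *rk*, *hth*, *br*, *Hr3*, *sev*, *crq*, *Lsp2*, *Fbp2*, *Ddc*, *Larp7*, *amx*, *CG12106*, *CG12118*, *CG12121*, *Gr8a* and *cn*, whose exons overlap another gene, are uncertain. The level of *se* is uncertain for the same reason. Gene symbols were found for 16402 identifiers and not for 53, and positions were taken from an annotation of the dm6 assembly.

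The 8051 genes that reached 1 TPM in any library (8404 did not) were fitted in R 4.3.3 by limma 3.58.1, with label as the only term, by lmFit and eBayes on log2(TPM + 1). Calls needed an adjusted p (Benjamini-Hochberg) under 0.05 and a fold change over 1.7. The scripts were tested on simulated data. The sets of 8 pathway lists and 8 marker lists were described by counts and medians only. The members and the lists were chosen with earlier results of these data known.

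Named with values were the members, *CR40469* and *rpr*, the 3 most expressed tested genes of each list besides members, tested genes within 50 kb of *t* and genes listed at 0 under one label with at least 1 TPM in every library of the other. *CR34335*, similar in sequence to *CR40469*, was listed at 1938.29, 1928.63 and 1902.09 TPM in mutant-labelled libraries and 3521.64, 2442.97 and 3201.91 TPM in control-labelled libraries. *CG15368*, *CG15369*, *Obp8a*, *Gr8a*, *Ir8a*, *st*, *bw*, *cd*, *ry*, *se*, *mal*, *cin*, *pr*, *Sptr*, *Burs*, *Pburs*, *rk*, *PPO3*, *bab1*, *bab2*, *Abd-B* and single markers lie outside this rule, and they were picked once their values had been seen. *AANAT1* and *KFase* of the lists were not matched and are not analysed here. Alternatives were pseudocounts of 0.1 and 0.5, no filter, a filter in 3 libraries, median ratio scaling, a mean-variance trend, a replicate block, the adjusted p alone, and each library left out in turn. Figures were drawn with matplotlib 3.10.9.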

Additional observations from a re-analysis of the deposited data

How the results depend on the processing

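TPM keep no depth, and 3 libraries a label limit what can be called. Of all tested genes 18 were called, 23 with a pseudocount of 0.1 or of 0.5, 22 with the filter in 3 libraries, 20 under median ratio scaling, 16 with a trend, 18 by the adjusted p alone and 11 with no filter. Leaving out single libraries gave between 6 genes (without control replicate 1) and 35 (without mutant replicate 1), with 9 without control replicate 3 and 11 without mutant replicate 3. Of the members and of the pathway genes 1 was called, *t*. Its difference chose it, so neither this call nor its fate under the alternatives is read as a result. Without a filter 0 were called, and leaving out single libraries gave between 0 and 1, with 0 without mutant replicate 3, control replicate 1 or control replicate 2. With the replicate number as a block 31 genes were called, of which 1 was a member. The numbers pair nothing in the labels, and deviations of same-numbered libraries correlated at -0.03, -0.35 and 0.16 (across genes, which are not independent), so they share only a number.

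Directions turned only in values that were not called. Under median ratio scaling the log2 fold changes were -0.030 (*CG5618*), -0.10 (*Dhpr*), -0.071 (*kar*), -0.12 (*or*), -0.096 (*cm*), -0.069 (*hth*), -0.089 (*Dll*), -0.016 (*CG12118*) and -0.085 (*amx*). With single libraries left out in turn, values lay between -0.11 and 0.62 for *b*, -0.33 and 0.18 for *Ddc*, -0.17 and 0.32 for *CG5618*, -0.68 and 0.62 for *PPO2*, -0.65 and 0.56 for *PPO1*, -0.0052 and 0.053 for *Dhpr*, -0.060 and 0.49 for *amd*, -0.16 and 0.15 for *kar*, -0.13 and 0.011 for *lt*, -0.062 and 0.083 for *or*, -0.021 and 0.075 for *cm*, -0.13 and 0.092 for *exd*, -0.082 and 0.32 for *hth*, -0.16 and 0.34 for *Dll*, -0.046 and 0.29 for *CG12121*, -0.070 and 0.52 for *mxc* and -0.085 and 0.15 for *amx*. The causes were not tested. Of the values of single genes over the alternatives, 41 turned, 502 kept their direction and their side of the threshold, and 13, all of *t*, *CR40469* or *CG32631*, kept their direction but were no longer called. The calls of *t* and *CG32631* are not read, because both genes were picked by their values.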

Other observations

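The order of libraries seen for *PPO1* and *PPO2*, with replicate 1 highest under both labels, was shared in part by muscle genes. *Mhc*, the muscle myosin heavy chain gene, was listed at 1.07, 0.08 and 0.09 TPM in mutant-labelled libraries and at 1.71, 0.04 and 0.16 TPM in control-labelled libraries. *Hml*, a gene of plasmatocytes, was listed at 0.85, 0.14 and 0.22 TPM in mutant-labelled libraries and at 0.45, 0.06 and 0.28 TPM in control-labelled libraries, again with replicate 1 highest and replicate 2 lowest. The haemocyte genes *NimC1*, *eater*, *He* and *crq* had replicate 3 highest among control-labelled libraries instead. *up*, the troponin T gene, was listed at 2.84, 0.53 and 0.73 TPM in mutant-labelled libraries and at 4.32, 0.61 and 1.74 TPM in control-labelled libraries, and *Tm2* at 2.29, 0.74 and 0.61 TPM in mutant-labelled libraries and at 3.41, 0.31 and 1.03 TPM in control-labelled libraries. Replicate 1 was thus highest under both labels for 3 of the 4 muscle genes. *Act57B*, which carries most of their sum, was listed at 19.20, 27.70 and 28.42 TPM in mutant-labelled libraries and at 23.41, 14.91 and 15.66 TPM in control-labelled libraries. Summed levels of the 2 tracheal genes were between 14.6 and 18.7 TPM in mutant-labelled libraries and between 11.9 and 18.7 TPM in control-labelled libraries, and those of the 5 neuronal genes between 9.55 and 12.8 TPM in mutant-labelled libraries and between 7.27 and 10.1 TPM in control-labelled libraries.

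Single genes of the ecdysone response differed from their sum. *br*, an early gene, was listed at 379.58, 218.93 and 225.96 TPM in mutant-labelled libraries and at 157.82, 269.05 and 164.40 TPM in control-labelled libraries, with mutant replicate 1 the highest library, while it had the lowest sum of the mutant-labelled libraries. *Hr3*, a gene of the prepupal hierarchy, was listed at 7.70, 35.43 and 30.37 TPM in mutant-labelled libraries and at 10.51, 16.93 and 9.78 TPM in control-labelled libraries. These genes were picked after their values were seen and are given as values only.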
